A study of Mus musculus with 47 samples.

Results

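The 6 T-cell lymphoblastic tumours labelled TLX1 transgenic, all of the genotype TLX1 positive lymphoma, fell into 3 with high and 3 with low levels of Notch pathway genes. They are 6 of 47 mouse tumours, each measured on 1 Affymetrix array. Tumours 3, 4 and 5, by their title numbers, form the Notch-high class and tumours 1, 2 and 6 the Notch-low class. The classes were chosen by the measured Notch pathway levels of these same arrays, so the contrast between the classes is a description and carries no test. The mean of 26 tested Notch pathway genes, each centred over the 47 arrays on the log2 scale, was 0.53, 0.69 and 0.42 in tumours 3, 4 and 5. It was −0.46, −0.45 and −0.60 in tumours 1, 2 and 6. Tumour 5, just inside the high class, and tumour 2, just outside it, are 0.86 apart.

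The other 41 tumours carry the label TLX1 negative lymphoma and served as an independent set. The knockout backgrounds are *Cdkn2a* with retroviral insertional mutagenesis (9 tumours), p53 (3), E2A (2) and rag E2A (2). The single transgenic ones are beta-catenin, LMO1, Nup98HoxD13 and ThPOK (3 each), Pokemon (2) and Tal1 (2), the double transgenic ones are olig1-LMO1 and Tal1-LMO2 (3 each), and the last is Ikaros Plastic (3). No promoter driving a transgene, mouse strain, age or sex is given in the sources used here, and nothing says that the tumours of a background come from separate mice, so p-values measure only the spread between these samples.

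TLX1 is a homeobox transcription factor whose misexpression in developing T cells causes T-cell leukaemia. Notch receptors are cleaved after they bind a ligand on a neighbouring cell, and the freed intracellular part joins RBPJ and MAML proteins on DNA and switches on targets such as *Hes1*, *Dtx1* and *Ptcra*. In the thymus this signal commits progenitors to the T lineage and carries them through beta selection, the checkpoint at which a first T cell receptor chain is tested, and it then declines. Activating *NOTCH1* mutations are common in human T-cell leukaemia.

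The arrays were of like brightness, with array medians of 58.0 to 75.2 signal units in the TLX1 tumours and 49.6 to 106 in the others. RNA quality varied within the TLX1 group and across both classes. The log2 3'/5' signal ratio of the *Gapdh* control, which is high when RNA is degraded or incompletely copied, was 0.49, 0.29 and 2.37 in tumours 3, 4 and 5, against 0.27, 2.86 and 1.87 in tumours 1, 2 and 6. The TLX1 negative range was −0.53 to 0.71, so tumours 2, 5 and 6 stood above all of it, 1 in the high class and 2 in the low class. By the *Actb* control tumour 3 (1.31) was above the TLX1 negative range too (0.11 to 1.22), as were tumours 2, 5 and 6 (2.00 to 2.73). *Cd3e*, a chain of the T cell receptor complex, read 1737, 2043 and 3106 signal units in tumours 3, 4 and 5, against 1323, 2089 and 2489.5 in tumours 1, 2 and 6. The others read 84.4 to 3549 (median 1811), so all 6 TLX1 tumours carry a defining T cell marker within that range. The mean of the 20 tested T cell receptor genes was lower in tumour 2 (−0.63) than in the other 5 (−0.06 to 0.10), and the summed signal of myeloid markers, given further on, was highest there. The *Tlx1* probe set was dim in TLX1 tumours (7.14 to 41.5) and in the others (1.53 to 160) and did not pass the filter, so it does not check the label. *Lmo1* went against 2 labels in the comparison set. Its signal was only 11.1 to 34.3 in the tumours labelled olig1-LMO1, and 586 to 2526 in those labelled Nup98HoxD13, as high as in LMO1 transgenic tumours (522 to 2344).

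Of the Notch receptors, *Notch1* and *Notch3* divided the tumours and *Notch2* did not. *Notch1* read 4259.6, 3240.2 and 2413 signal units in tumours 3, 4 and 5, against 441, 626 and 246 in tumours 1, 2 and 6, a log2 difference of 2.93 ± 0.44 (difference of the class means ± SE, n = 3 and 3, as for every difference between the classes below). *Notch3* read 1309, 1290.0 and 1149 against 129, 222 and 32.1. Every Notch-high tumour was above every Notch-low tumour for both, while *Notch2* differed by −0.18 ± 0.26 with overlapping classes. These genes are in the list that chose the classes, so their separation is no finding.

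The targets were divided less evenly. *Dtx1*, a cytoplasmic Notch regulator and target, read 2321, 2837 and 2055 against 98, 52.3 and 56.3 (log2 difference 4.86 ± 0.27), the widest gap of the list. *Ptcra*, the surrogate chain of the receptor tested at beta selection, read 398, 1232 and 643 against 55.8, 12.1 and 22. *Trib2*, a pseudokinase and leukaemia-linked target, and *Heyl*, a transcriptional repressor, were also apart by 3.32 and 2.61. *Hes1*, a repressor of the same family, was high mainly in tumour 4 (157, 531 and 89.3 against 70.9, 49.2 and 48.4).

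Other members of the list overlapped between the classes. *Il2ra*, the high-affinity chain of the interleukin 2 receptor, read 19.9, 234 and 1665 against 60.8, 36.7 and 12.7, so tumour 3 was as low as the Notch-low tumours. *Nrarp*, a feedback inhibitor, read 697, 624 and 89.8 against 133, 106 and 199.6, with tumour 5 the lowest of all 6. *Myc*, a growth-promoting target, differed by 0.21 ± 0.78, and *Rbpj*, the DNA-binding partner of Notch, by 0.04 ± 0.19. In all, 8 of 26 tested genes of the list were higher in tumours 3, 4 and 5 without overlap and 0 were lower, beside 7% and 5.38% of all genes outside it, and *Jag2*, a ligand, was the one among the 8 under 2-fold (0.42). Under quantile normalization 7 of the 26 did so.

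**Figure D1:**
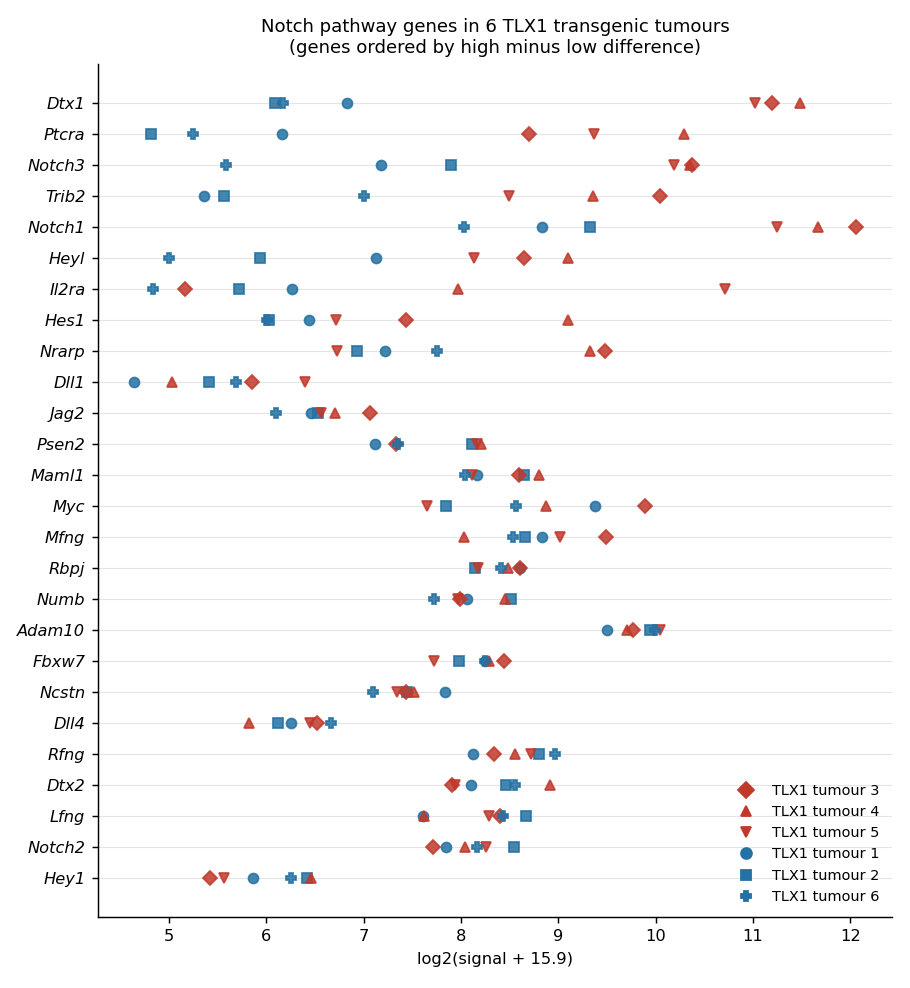
Levels of the 26 tested Notch pathway genes as log2(signal + 15.9) on the horizontal axis, 1 point per TLX1 tumour, red for tumours 3, 4 and 5 and blue for tumours 1, 2 and 6. The classes part for *Dtx1*, *Ptcra*, *Notch3*, *Trib2*, *Notch1*, *Heyl*, *Hes1* and *Jag2*, and overlap for the other genes, *Il2ra* and *Nrarp* included.

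Promoter sequences of 3 genes are printed because RBPJ, the DNA-binding partner of Notch, recognises a short core, TGGGAA: *Ptcra*, a textbook Notch target that divided the classes, *Rag1*, the recombinase gene that divided them, and *Nrp1*, a gene outside the Notch list whose level also went with the Notch mean in the other 41 tumours. Each runs 5′ to 3′ over the 250 bases before the gene's start on its own strand, from RefSeq (GRCm38.p6), and capitals mark the core on either strand (TGGGAA or TTCCCA). *Ptcra* is at chr17:46763713-46763962 on the minus strand, *Rag1* at chr2:101649533-101649782 on the minus strand and *Nrp1* at chr8:128358823-128359072 on the plus strand.
Ptcra: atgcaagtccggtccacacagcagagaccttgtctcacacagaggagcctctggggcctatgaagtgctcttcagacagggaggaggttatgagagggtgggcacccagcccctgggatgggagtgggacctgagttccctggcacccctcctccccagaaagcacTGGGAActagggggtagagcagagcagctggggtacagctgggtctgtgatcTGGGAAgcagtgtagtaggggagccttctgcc
Rag1: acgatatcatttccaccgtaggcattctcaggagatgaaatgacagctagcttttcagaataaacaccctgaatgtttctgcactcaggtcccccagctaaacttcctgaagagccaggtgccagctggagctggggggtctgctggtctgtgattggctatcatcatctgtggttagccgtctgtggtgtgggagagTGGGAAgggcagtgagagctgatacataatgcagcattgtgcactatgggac
Nrp1: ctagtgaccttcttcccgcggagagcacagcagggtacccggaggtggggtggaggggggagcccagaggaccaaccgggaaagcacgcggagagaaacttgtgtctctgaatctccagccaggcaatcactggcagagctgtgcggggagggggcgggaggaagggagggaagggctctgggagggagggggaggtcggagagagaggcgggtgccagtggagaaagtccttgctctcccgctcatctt

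The core stands at positions −84 and −32 from the start of *Ptcra* and at −52 from that of *Rag1*, and these letters are not in the *Nrp1* window. Over all promoters of tested genes 23.9% hold the core (1709 of 7144). Of the genes higher in the Notch-high TLX1 tumours 44 of 153 with a promoter entry held it (28.8%), and of the lower genes 10 of 48 (20.8%). Of the Notch list genes that did not overlap, 1 of 6 with an entry held it (16.7%), and this was *Ptcra*. Among the 15 genes of largest difference in the higher direction it was 1 of 8 (12.5%), and this was *Rag1*. A match of 6 letters is a description and not a binding site.

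The Notch means of the TLX1 tumours, tumour 4 apart, lie within the range of the others. The 41 TLX1 negative tumours had Notch means of −0.81 to 0.68 (median 0.05). Of these, 10 were above tumour 5, the lowest of the high class, and 0 were above tumour 4, the highest. At the other end 11 were below tumour 2, the highest of the low class, and 6 were below all 3 Notch-low tumours. Beta-catenin transgenic tumours were all low (−0.55 to −0.52) and LMO1 transgenic tumours all high (0.42 to 0.68), while the Cdkn2a knockout tumours spanned −0.74 to 0.04.

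Outside the Notch list, 213 genes were higher by at least 2-fold in tumours 3, 4 and 5 without overlap (2.42% of 8784 genes) and 62 were lower (0.706%). The median difference over all these genes was 0.02. Of the genes that did not overlap at any size, 615 were higher (7%) and 473 lower (5.38%); under quantile normalization the split was 516 to 576, so the excess of higher genes at small sizes depends on the scaling. At 2-fold that normalization gave 189 higher and 91 lower. Just inside and outside the 2-fold line, which is 1 on the log2 scale, were *Lnx1* (1.004) and *Wnk2* (0.999) among the higher genes, and *Haus8* (−1.002) and *Cmtm7* (−0.998) among the lower. At least 4-fold separated 46 of the 213 and 11 of the 62. Leaving out any 1 tumour gave 348 to 517 genes in place of 275, since fewer tumours then have to stand apart.

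The largest differences were in genes of several unrelated kinds. *Ifi202b*, an interferon-inducible gene of the Ifi200 family, read 5664, 2561 and 2659 in tumours 3, 4 and 5, against 38.6, 240.4 and 11.4 in tumours 1, 2 and 6 (log2 difference 5.55 ± 1.02). None of the 41 TLX1 negative tumours reached the lowest of the 3 Notch-high values; they read 0.961 to 1683 (median 41). Its probe set is of the kind that can match related transcripts, and 4 Ifi200 family genes were tested. *Ifi204* was separated too (63.4, 244 and 61.9 against 13.1, 31.7 and 9.49), but *Ifi209* and *Mndal* overlapped, *Mndal* reading 102, 2980 and 3646 against 750.3, 442 and 536.

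*Ly6d*, a surface protein of lymphoid progenitors and B cells, read 3908, 2213 and 3055 against 203, 371 and 5.96 (log2 difference 4.61 ± 1.29), with tumour 6 far below the others. *Plagl1*, an imprinted zinc finger transcription factor, had the same shape (3786, 1844 and 1977 against 280.2, 206 and 11.6). Of the TLX1 negative tumours 1 was above the lowest Notch-high value of *Plagl1*, and 11 were for *Ly6d*. The other *Plagl1* probe set stayed dim and overlapped between the classes.

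*Hdgfl3*, a member of the hepatoma-derived growth factor family, read 672, 379.7 and 474 against 39.1, 14.1 and 2.8 (log2 difference 4.03 ± 0.51). Both of its other probe sets were apart in the same direction. *Scara3*, a scavenger receptor, read 1125, 1308 and 418 against 84.5, 65.4 and 13.2, and *Arsi*, a sulfatase, 1773, 1072 and 829 against 87.5, 118 and 58.1. *Fbp1*, an enzyme of gluconeogenesis, read 549, 3898 and 2306 against 267, 321 and 49, with tumour 3 close to the Notch-low tumours. *Ndrg1*, a gene induced by stress and low oxygen, read 2052, 985 and 2804 against 294, 296 and 70.9, and 4 of its 4 other probe sets were apart in the same direction.

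Immune genes among the largest differences were *Bst1*, an ectoenzyme of bone marrow stroma and lymphoid precursors (547, 443 and 44.6 against 15, 43.6 and 4.2, log2 difference 2.91 ± 1.12), and *Il10*, an anti-inflammatory cytokine (236, 192 and 106 against 10.2, 16.6 and 2.71, 2.88 ± 0.39). Tumour 5 was barely above tumour 2 for *Bst1*, whereas all 3 Notch-high tumours were well above the others for *Il10*. The remaining 5 of the 15 largest, described further on, were *Rag1* and the muscle genes *Ckm*, *Sln*, *Myh1* and *Myl4*.

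**Figure D2:**
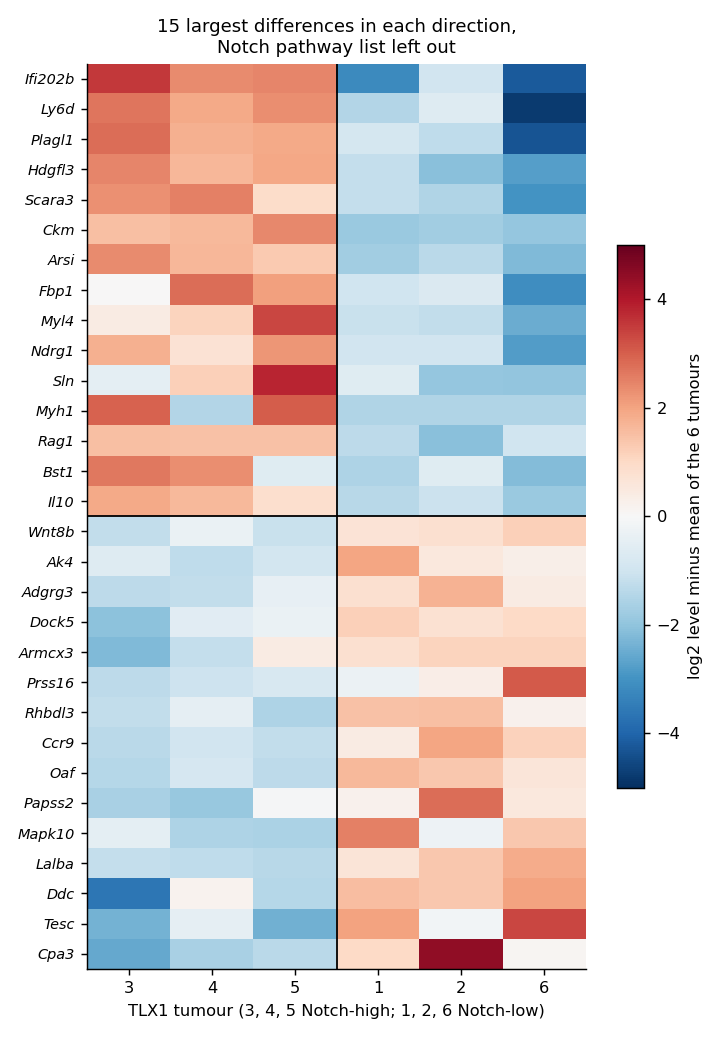
The 15 genes of largest difference in each direction among those at least 2-fold apart and not overlapping, Notch pathway list left out, as log2 level minus the mean of the 6 TLX1 tumours (colour, red above and blue below). Tumours 3, 4 and 5 are on the left of the vertical line; *Rag1* is even across them, whereas *Myh1* is bright in tumours 3 and 5 and pale blue in tumour 4.

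*Rag1*, which encodes an enzyme that cuts DNA to assemble T cell receptor genes, was nearly level within the high class (SD 0.02 on the log2 scale). It read 1219, 1187 and 1183 in tumours 3, 4 and 5, against 161, 87.1 and 205 in tumours 1, 2 and 6, a log2 difference of 2.93 ± 0.33. The Notch-low tumours are the unusual ones here, as 37 of the 41 TLX1 negative tumours were above all 3 and the median was 1609. *Rag2*, its partner, was also apart (139.9, 29.9 and 41 against 16.9, 16.8 and 21.7), mostly through tumour 3. The *Rag1* promoter printed above holds 1 match to the RBPJ core, as do 23.9% of all tested genes with a promoter entry.

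Other genes of the double negative to beta selection list, with Notch list genes left out, differed by small amounts at the median (0.23). Of 21 tested, 6 were higher without overlap and 0 lower (5 and 0 under quantile normalization), beside 7% and 5.38% of all genes. Besides *Rag1* and *Rag2* these were *Bcl11a*, a progenitor transcription factor (1.25), and *Egr2*, a target of receptor signalling at beta selection (1.08). Also among them were *Spib*, an ETS factor (0.77), and *Cd81*, a tetraspanin (0.25). *Spib* read 74, 79.5 and 285 against 68.8, 71.9 and 53.4, so it was apart mostly through tumour 5. *Egr2* read 66.1, 55.5 and 56.4 against 46.1, 3.88 and 20.4. The other probe sets of *Bcl11a* and *Egr2* overlapped. With the median signal as pseudocount these genes differed by only 0.56 and 0.48. *Dntt*, the enzyme that adds bases at receptor joints, overlapped (1784, 669 and 1111 against 463, 2928 and 2073), and so did *Il7r*, the interleukin 7 receptor (2272, 960.3 and 573 against 2076, 749 and 134), and *Kit* (−0.43 ± 1.37).

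Among 17 genes of double positive thymocytes, which carry both CD4 and CD8, 3 were higher and 2 lower without overlap, beside 7% and 5.38% of all genes. *Cd8a* read 656, 844 and 397 against 87.9, 37.6 and 363, so tumour 6 came close to tumour 5, and all 6 were under the TLX1 negative median of 1724. Its other probe set overlapped (1004, 1365 and 1236 against 127, 112 and 1302), with tumour 6 above tumours 3 and 5. *Cd8b1*, the other CD8 chain, overlapped because tumour 2 alone was low (370.2, 583 and 523 against 426, 18 and 441). *Cd4* differed by −0.23 ± 0.52. Going the other way, *Ccr9*, the receptor that holds thymocytes to the chemokine CCL25, read 461, 593 and 495 in tumours 3, 4 and 5, against 1574, 4720.2 and 2615 in tumours 1, 2 and 6 (log2 difference −2.35 ± 0.47), and 2 of 2 other probe sets were apart the same way. *Slc7a11*, a cystine transporter, was lower as well (66.4, 51.7 and 38.6 in tumours 1, 2 and 6 against 11.2, 17.8 and 21.7).

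Genes of mature T cells and of T cell receptor signalling were mostly not divided. The shares over all genes without overlap were 7% higher and 5.38% lower. *Klf2*, which directs the exit of mature cells from the thymus, read 1089.5, 714 and 309 against 177, 155 and 82.5 (log2 difference 2.11 ± 0.60), the only gene of 21 in its list that was higher without overlap, and its slope in the other 41 tumours, explained further on, was not called (2.29 ± 0.59, adjusted p = 0.136). *Zbtb7b*, which encodes ThPOK and directs cells to the CD4 lineage, was the only lower one (47.9, 66.9 and 34.4 against 167, 127 and 75.5). Its other probe set overlapped. *Fyn*, a Src family kinase, was higher (1.19), and *Grap2*, an adaptor, lower (−0.72), out of 20 receptor genes. *Itgae*, an integrin of epithelium-bound T cells, read 154, 62.7 and 65.2 against 9.27, 6.67 and 33.4.

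Of 17 T lineage regulators none was higher without overlap and 1, *Zeb1*, was lower (−0.67 ± 0.39), beside 7% and 5.38% of all genes. Under quantile normalization 0 were lower. *Lef1*, a factor downstream of Wnt, read 476, 466 and 101 against 116, 24.7 and 63.8, with tumour 5 below tumour 1. *Gata3* differed by −0.90 ± 0.67, *Bcl11b* by 0.55 ± 0.29, *Runx1* by 0.51 ± 0.30, *Ets1* by 0.37 ± 0.26 and *Myb* by 0.03 ± 0.21, all with overlap. None of 12 E protein and Id genes was apart by the probe set used for it. *Tcf3*, which encodes E2A, differed by −0.09 ± 0.32 and *Id3*, an inhibitor of E proteins, by 0.53 ± 0.43. *Id2* differed by 0.31 ± 0.55 by the probe set used. Another of its probe sets was apart (198, 280 and 118 against 72.4, 102 and 86.3), and its remaining, dim one overlapped. Among cytokine pathway genes, 2 of 32 were higher, *Socs3*, a feedback inhibitor of JAK-STAT signalling, and *Ifnar2* (0.72), and *Ifngr2* was lower (−1.09).

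The 15 largest differences in the other direction were again of mixed kinds. *Cpa3*, a protease of mast cells and early progenitors, read 217, 2496 and 109 in tumours 1, 2 and 6 against 3.87, 22.1 and 30.5 in tumours 3, 4 and 5, so tumour 2 was by far the highest. *Tesc*, a calcium-binding protein, read 524, 106 and 1356 against 10.6, 82.3 and 9.58, and *Ddc*, the decarboxylase of dopamine and serotonin synthesis, 732, 627 and 999.7 against 5.15, 270.4 and 78. *Mapk10*, a JNK kinase, read 369, 39.2 and 155 against 31.7, 6.67 and 6.12, with tumour 2 close to tumour 3. *Prss16*, a thymus-specific serine protease, was high in tumour 6 alone (58.7, 98.7 and 739.8 against 21.2, 28.3 and 36.7).

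More even within the classes were *Dock5*, an activator of Rac (355, 258 and 307 against 22.6, 93.1 and 112, log2 difference −1.98 ± 0.56), *Rhbdl3*, a rhomboid protease (−2.14 ± 0.53), *Oaf* (−2.37 ± 0.35) and *Wnt8b*, a Wnt ligand (−1.77 ± 0.32). *Lalba*, a milk protein, was 63.9, 113 and 168 against 6.59, 5.07 and 3.51. *Papss2*, which makes the sulfate donor of the cell, *Armcx3*, a mitochondrial protein, *Adgrg3*, an adhesion receptor, and *Ak4*, an adenylate kinase, differed by −2.38 ± 0.99, −2.01 ± 0.77, −1.96 ± 0.49 and −1.88 ± 0.55. The other probe sets of *Armcx3*, *Rhbdl3* and *Wnt8b* overlapped. For *Papss2* and for *Ak4*, 1 of 3 other probe sets was apart the same way. No TLX1 negative tumour reached the highest Notch-low value of *Cpa3*, *Dock5*, *Lalba*, *Papss2*, *Prss16*, *Rhbdl3* or *Wnt8b*. Of these genes only *Dock5* had every Notch-low tumour above every TLX1 negative tumour, the highest of which read 187. For the others some Notch-low tumours were below the highest TLX1 negative value. That value was 566 for *Cpa3*, 155 for *Lalba*, 884 for *Papss2*, 158 for *Prss16*, 120 for *Rhbdl3* and 79.5 for *Wnt8b*.

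Some genes of proliferation were lower in the Notch-high tumours, by small amounts. Of 40 tested genes of cell cycle and DNA replication, 7 were lower without overlap and 0 higher (8 and 0 under quantile normalization), beside 5.38% and 7% of all genes, and their median difference was −0.48 against 0.02 over all genes. Medians of like size, though positive, were found in lists with few or no genes apart. Genes of mature T cells had one of 0.54, and thymic epithelium and stroma markers one of 0.52. *Mki67*, the usual marker of cycling cells, read 2390.4, 3021 and 2088 in tumours 3, 4 and 5, against 3116, 3416 and 3814 in tumours 1, 2 and 6. *Cdc6*, which loads the replicative helicase, read 352, 216 and 192 against 665, 361 and 543, and *Ccne2*, a G1/S cyclin, differed by −0.96 ± 0.29. *Rrm2*, a subunit of ribonucleotide reductase, read 1799.7, 1912 and 1504 against 2626, 2986 and 2568, and *Bub1*, a spindle checkpoint kinase, 465, 415 and 300.4 against 647, 539 and 842. Of 2 other *Rrm2* probe sets 1 was apart the same way and 1 overlapped (883, 663 and 377 against 1501, 778 and 975). The other *Bub1* probe set was dim and overlapped. The mean of the cell cycle list was −0.18, −0.44 and −0.70 in tumours 3, 4 and 5, against 0.29, −0.26 and 0.12 in tumours 1, 2 and 6. Tumour 2 thus lay below tumour 3.

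Cell cycle inhibitors and growth pathways showed isolated differences. Beside the counts that follow, 7% of all genes were higher and 5.38% lower without overlap. *Cdkn1b*, which encodes p27, was higher (273, 256 and 300.4 against 131, 198 and 249), and *Cdkn1c*, which encodes p57, lower (110.3, 160.4 and 132 against 270.0, 243 and 162). Of 27 MYC target genes 1, *Apex1*, was higher (0.25), and the list's median was −0.24. Of 15 glycolysis genes *Slc2a1*, a glucose transporter (0.60), and *Pdk1*, which restrains entry of pyruvate into mitochondria (0.60), were higher. In cholesterol synthesis 3 of 16 were lower, *Cyp51* (−1.23), *Sqle* (−0.79) and *Sc5d* (−0.37), and *Mvd* was higher (0.54). Of 14 leukaemia suppressors *Nf1*, a Ras inhibitor, was higher (0.42) and *Ezh2*, a histone methyltransferase, lower (−0.48). In the early thymic progenitor list 1 of 13 was apart (*Bcl11a*), in the apoptosis list 1 of 18 was (*Pmaip1*, 0.76), and in the HOX and gamma delta T cell lists 0 of 8 and 0 of 6 were. Of 22 chemokine receptors and integrins, *Itgae* was higher and *Ccr9* lower, as given above. None of 17 ribosomal protein genes was apart, and 1 of 28 oxidative phosphorylation genes was (*Sdhb*, −0.50). Under quantile normalization *Cdkn1b*, *Nf1* and *Sdhb* overlapped, and 1 of the 15 glycolysis genes was higher in place of 2. Lower without overlap were then 4 of 16 cholesterol synthesis genes, 1 of 18 apoptosis genes and 1 of 13 early thymic progenitor genes. All other probe sets of *Cdkn1b*, *Apex1*, *Pdk1*, *Mvd*, *Sc5d* and *Nf1* overlapped, as did 1 of 2 for *Slc2a1* and for *Cyp51*.

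Stress and interferon genes were apart in a minority. Of 22 p53 target genes 5 were higher, *Zmat3* (1.03), *Pmaip1*, *Rrm2b*, *Ei24* and *Ddb2*, and *Gadd45a* was lower (−0.97); the shares over all genes are 7% and 5.38%. Under quantile normalization 3 of the 22 were higher and 2 lower. Of 21 immediate early genes *Egr2*, *Fos* (0.99) and *Zfp36* (0.66) were higher and none lower. Of 22 interferon response genes *Gbp2* (1.06), *Irf1* (0.77) and *Ifi35* (0.41) were higher and *Irf9* lower (−0.23). *Bcl2*, which blocks apoptosis, overlapped (140.1, 52.5 and 225 against 33, 61.5 and 35.6), as did *Mcl1* (−0.03 ± 0.35).

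MHC class II genes, which present antigen and in the mouse are made by B cells, dendritic cells, macrophages and thymic epithelium, had a median difference of 1.06. Of 9 tested, 4 were higher without overlap and 0 lower, beside 7% and 5.38% of all genes; under quantile normalization 2 were higher and 0 lower, beside 516 and 576 of all 8784 genes. *H2-Oa* read 637, 654 and 631 in tumours 3, 4 and 5, against 115, 199.9 and 234 in tumours 1, 2 and 6. *Cd74*, the invariant chain, read 1632, 1545 and 4805 against 679.7, 1117 and 1525, and *H2-DMa* 205, 221 and 798 against 86.7, 137 and 183, so tumour 6 was just below tumours 3 and 4, and tumour 5 was well above all. *H2-DMb2*, the remaining gene of the 4, was dim, with tumours 3 and 1 nearly tied (35.920, 39.0 and 37.9 against 35.915, 12.4 and 25.5). In tumour 5 the B cell marker list had a mean of 1.73 and the dendritic cell list one of 1.40, both the highest of the 6 tumours. Their part in the class II values was not tested, and in bulk tumours fewer cells of a type and less RNA per cell cannot be told apart.

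Few markers of other cells were apart between the classes, where 7% of all genes were higher and 5.38% lower without overlap. The summed signal of 29 myeloid markers ran from 11894 to 20904 in the Notch-high tumours and from 8746 to 103322 in the Notch-low ones, the highest value being tumour 2, against 1937 to 24257 in TLX1 negative tumours. The sum of 10 B cell markers ran from 5781 to 25899 and from 4179 to 9373, and that of 8 dendritic cell markers from 699 to 2052 and from 1044 to 1415. Of 19 thymic epithelium and stroma markers, 13 endothelial, 9 cytotoxic and 4 erythroid markers none was apart. Among the 29 myeloid markers *Csf1r* (0.98) and *Vcam1* (0.49) were higher without overlap, near the share of all genes, and the other probe sets of both overlapped. Among the dendritic cell markers *Itgax* was higher without overlap (1.03), though not under quantile normalization. Of the B cell markers *Cd79a*, a chain of the B cell receptor, was higher (49.6, 62.1 and 199 against 45.9, 26.9 and 14.2), and *Cr2* (−0.76) and *Igll1* (−0.85) were lower. No marker of any of these lists had a signal of 0.

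Muscle genes set tumours 3 and 5 apart from the other 4. This list of 16 genes was added after their values had been seen, and its 15 tested genes had means of 2.34 in tumour 3 and 2.62 in tumour 5, against 0.20 in tumour 4 and −0.25 to −0.07 in tumours 1, 2 and 6. Tumours 3 and 5 were the top pair for 11 of the 15, and 5 were higher in all 3 Notch-high tumours without overlap, beside 7% of all genes. The summed signal of the 15 genes was 904 to 6237 in the Notch-high and 439.6 to 514 in the Notch-low tumours, and their part in the other differences was not tested. *Tnnc2*, a troponin of fast muscle, read 366, 4.61 and 489 in tumours 3, 4 and 5, against 2.44, 6.72 and 2.66 in tumours 1, 2 and 6. *Myh1*, a fast myosin, read 367, 2.44 and 388 against 1.97, 1.9 and 1.69, so it counts as not overlapping only through values near the bottom of the scale. *Ckm*, muscle creatine kinase, was high in all 3 Notch-high tumours (255, 278 and 497 against 10.9, 13.3 and 9.55). *Sln*, an inhibitor of the muscle calcium pump, read 41.1, 166 and 1101 against 37.1, 4.75 and 4.19, with tumour 3 near tumour 1 and tumours 4 and 5 on top.

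Genes of the sex chromosomes followed the same pair. *Eif2s3y*, on the Y chromosome, read 808 and 909.7 in tumours 3 and 5 and 0.913 to 1.75 in the other 4 TLX1 tumours. *Xist*, the RNA of the inactive X, read 2994, 2993 and 3028 in tumours 1, 4 and 6, 211 in tumour 2, and 8.96 and 47.2 in tumours 3 and 5. Sex and class are thus unevenly mixed, with *Eif2s3y* bright in 2 of 3 Notch-high and 0 of 3 Notch-low tumours, and its part in the other differences was not tested.

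**Figure D3:**
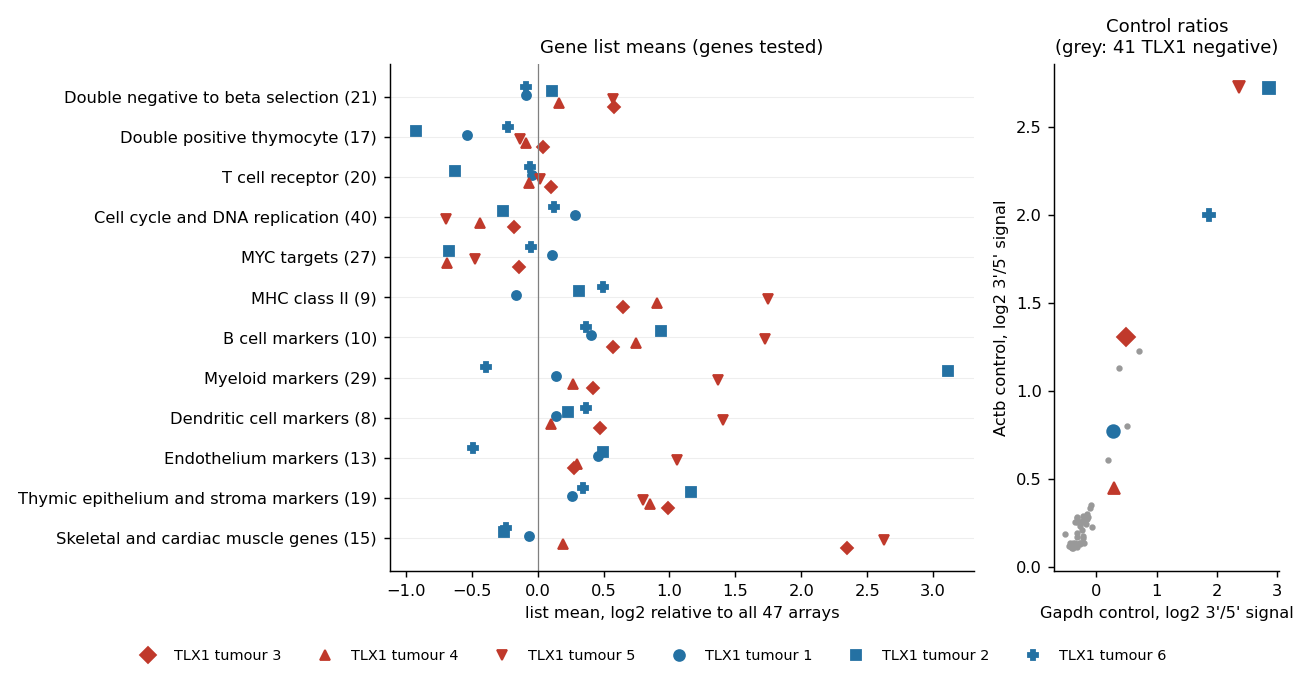
Left, mean of each gene list (horizontal axis, log2 relative to the mean of all 47 arrays; number of genes tested in brackets, Notch list genes left out), 1 point per TLX1 tumour. Right, log2 3'/5' ratios of the *Gapdh* and *Actb* controls, with the 41 TLX1 negative tumours in grey. Muscle genes are high in tumours 3 and 5, myeloid markers in tumour 2, and both control ratios in tumours 2, 5 and 6; the *Actb* ratio of tumour 3 (1.31) is also above all grey points.

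The size of many differences was uneven between tumours of low and of high control ratio, a split chosen after seeing the data. Tumours 1, 3 and 4 had low *Gapdh* ratios (0.27 to 0.49), and tumours 2, 5 and 6 high ones (1.87 to 2.86). Of the 213 higher genes 105 were at least 2-fold higher both in tumours 3 and 4 against 1 and in tumour 5 against 2 and 6, and 24 of the 62 lower genes were at least 2-fold lower in both. *Rag1* was 2.79 higher on the log2 scale at the low ratio and 2.99 at the high one, *Hdgfl3* 3.25 and 4.37, and *Ifi202b* 6.13 and 5.00. *Bst1* was 4.04 and 0.81, and *Sln* 0.94 and 5.78, so each was under 2-fold on 1 side. Each of these strata has 1 tumour in 1 of its classes, and the sign within them follows from the choice of genes that do not overlap.

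Whole profiles were only partly ordered by class. With the Notch list left out and genes centred, the correlation between tumours was 0.38 to 0.40 within the high class and 0.32 to 0.39 within the low class. Between classes it ran from 0.12 to 0.53 (tumours 3 and 6, and 2 and 5). Among the tumours of high control ratio the correlation was 0.53 for 2 and 5, 0.39 for 2 and 6 and 0.18 for 5 and 6. These are correlations across genes, which are not independent replicates.

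In the 41 TLX1 negative tumours, which had no part in the division, the slope of each gene on the Notch mean was tested within backgrounds. The slope is the log2 difference of a gene per log2 unit of the Notch mean. With the Notch list left out, 11 genes had a called positive slope (0.125% of 8784) and 2 a negative one (0.0228%), at a limma adjusted p under 0.05. Of the 213 genes higher in the Notch-high TLX1 tumours, 6 had a called positive slope (2.82%) and 0 a negative one. Of the 62 lower genes 0 had a called slope of either sign; at an unadjusted p under 0.05, limma gave 6 with a negative slope (9.68%, beside 3.32% of all genes) and 0 with a positive one. At that level 49 of the 213 had a positive slope (23.0%, beside 5.83% of all genes) and 1 a negative one. The slope was positive in 167 of the 213 and negative in 43 of the 62, while 4435 of all 8784 genes had a positive slope.

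*Nrp1*, a co-receptor for semaphorins and VEGF on thymocytes and regulatory T cells, had the lowest p of the 6. Its slope was 2.05 ± 0.33 (± SE, adjusted p = 0.00269, limma, as for the slopes that follow). In TLX1 tumours it read 971, 538 and 375 against 144, 369 and 48.7, so tumour 5 was just above tumour 2, and both other probe sets were apart the same way. *Hdgfl3* had the steepest slope of the 6, 3.27 ± 0.58 (adjusted p = 0.00389), and read 1.68 to 1185 (median 362) in the TLX1 negative tumours. *Socs3* had a slope of 2.56 ± 0.45 (adjusted p = 0.00389) and read 306, 377 and 728 against 136, 215 and 20.4 in TLX1 tumours, with 2 of 2 other probe sets apart.

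*Myl4*, a myosin light chain of atrium and embryonic muscle, had a slope of 2.34 ± 0.40 (adjusted p = 0.0038). In TLX1 tumours it read 191, 328 and 1562 against 57, 50.6 and 12.3, and tumour 5 was above all 41 others. Its other probe set was dim and overlapped. *Agrn*, which encodes the matrix proteoglycan agrin, had a slope of 2.10 ± 0.45 (adjusted p = 0.0311) and read 239, 331 and 181 against 56, 113 and 12.7. *Btg1*, an antiproliferative gene of resting lymphocytes, had a slope of 1.35 ± 0.28 (adjusted p = 0.0176) and read 3156, 3645 and 3269 against 975, 1852 and 1524; its other probe set overlapped. None of the 6 genes holds the RBPJ core in the promoter window described above, including *Nrp1*, whose sequence is printed there.

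**Figure D4:**
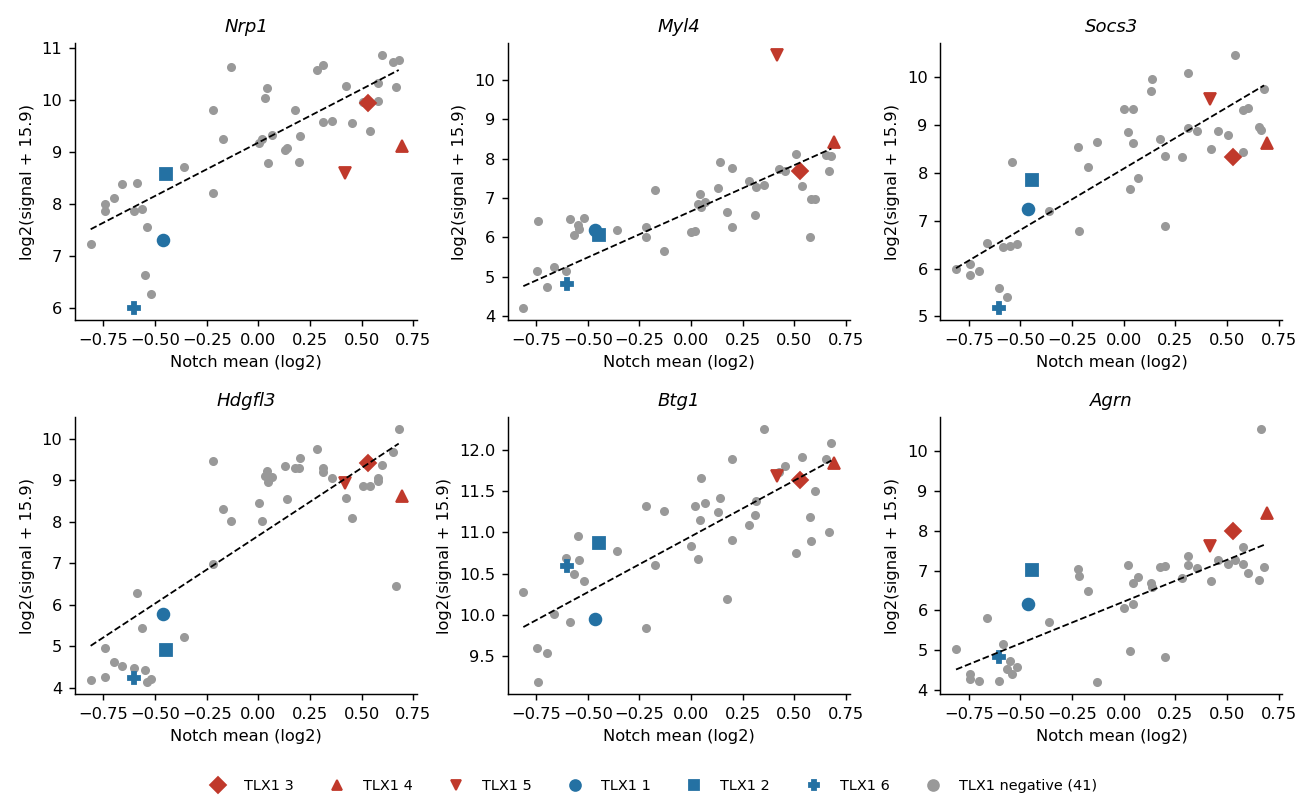
Levels of the 6 genes, as log2(signal + 15.9), against the Notch mean of each tumour. Grey points are the 41 TLX1 negative tumours, coloured points the TLX1 tumours, and the dashed line has the slope fitted within TLX1 negative backgrounds, drawn through their mean. In each panel tumours 3, 4 and 5 lie above tumours 1, 2 and 6.

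The calls rest on part of the backgrounds. The Notch mean varied within backgrounds by an SD of 0.23, and its range was wide in the tumours labelled olig1-LMO1 (−0.81 to 0.36), p53 knockout (−0.22 to 0.67) and Cdkn2a knockout (−0.74 to 0.04). Without the 9 Cdkn2a knockout tumours limma called 0 genes (738 at an unadjusted p under 0.05) and so 0 of the 6. Without the 3 tumours labelled olig1-LMO1, a label that *Lmo1* goes against, it called 5 genes, and *Klf2* was the 1 separated gene among them; *Nrp1* then had an adjusted p of 0.0502 and *Agrn*, *Btg1*, *Hdgfl3*, *Myl4* and *Socs3* of 0.0816 to 0.143. Of these tumours it was number 3 that mattered most: without it alone 2 separated genes were called, *Klf2* and *Nrp1*. Without Cdkn2a knockout tumour 7 there were 3, *Myl4*, *Nrp1* and *Socs3*. The total of called genes was 24 without p53 knockout tumour 2 and 29 without Ikaros Plastic tumour 2. *Agrn* also failed the threshold without p53 knockout tumour 1 or 2 (adjusted p = 0.0997 and 0.165). Without a term for background 1365 genes were called, 71 of them separated the same way.

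Other settings ended some of the calls. With a pseudocount of 1 *Hdgfl3* had a limma adjusted p of 0.059 and *Agrn* of 0.10. With the Notch mean taken over 5 genes (*Notch1*, *Dtx1*, *Ptcra*, *Il2ra* and *Hes1*) *Nrp1* (0.0545), *Btg1* (0.452) and *Agrn* (0.673) did not pass. *Btg1* also failed under quantile normalization (adjusted p = 0.0504), with a filter of 6 arrays (0.0622) and with the probe set of largest interquartile range (slope 0.87, adjusted p = 0.348), and its slope was positive in 7 of 13 backgrounds. *Agrn* failed under those 3 settings (0.0723 to 0.215) and with the median signal as pseudocount (0.0578). *Myl4* had a positive slope in 12 of 13 backgrounds, *Nrp1* and *Hdgfl3* in 9, and *Socs3* and *Agrn* in 8.

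The other 5 genes with a called positive slope were *Tm6sf1* (2.34 ± 0.37, adjusted p = 0.00269), *Adam19*, a metalloprotease (3.16), *Bmp2k*, a kinase (1.43), *Gimap4*, a GTPase of lymphocytes (3.05), and *Cd48*, a ligand of CD244 (1.58). In TLX1 tumours their classes overlapped by the probe set used: *Gimap4*, for one, read 1132, 49.5 and 698 against 115, 122 and 96.3, with tumour 4 the lowest of the 6. The other *Tm6sf1* probe set was apart (368, 363 and 293 against 143, 236 and 34.2, log2 difference 1.49). *Cers4*, a ceramide synthase (−1.87), and *Chchd3*, of the mitochondrial inner membrane (−1.30), had the negative slopes, and their classes overlapped too. These 7 are named for their call, after their values were seen.

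Several of the widest TLX1 differences had no called slope. *Rag1* had a slope of 0.36 ± 1.06 (adjusted p = 0.936), *Plagl1* one of 0.20 ± 1.31 (adjusted p = 0.977), and *Scara3* one of 0.07 ± 0.86 (adjusted p = 0.988). *Ly6d* had a steep but uncertain slope (3.15 ± 1.02, adjusted p = 0.298), and so did *Ifi202b* (2.06 ± 0.88, adjusted p = 0.468). On the other side *Ccr9* (−3.33 ± 0.98, adjusted p = 0.231), *Mapk10* (−2.29 ± 0.61, adjusted p = 0.161) and *Tesc* (−2.24 ± 0.96, adjusted p = 0.468) had negative slopes that did not pass. A slope that does not pass does not show that a gene is unrelated to the Notch mean.

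**Figure D5:**
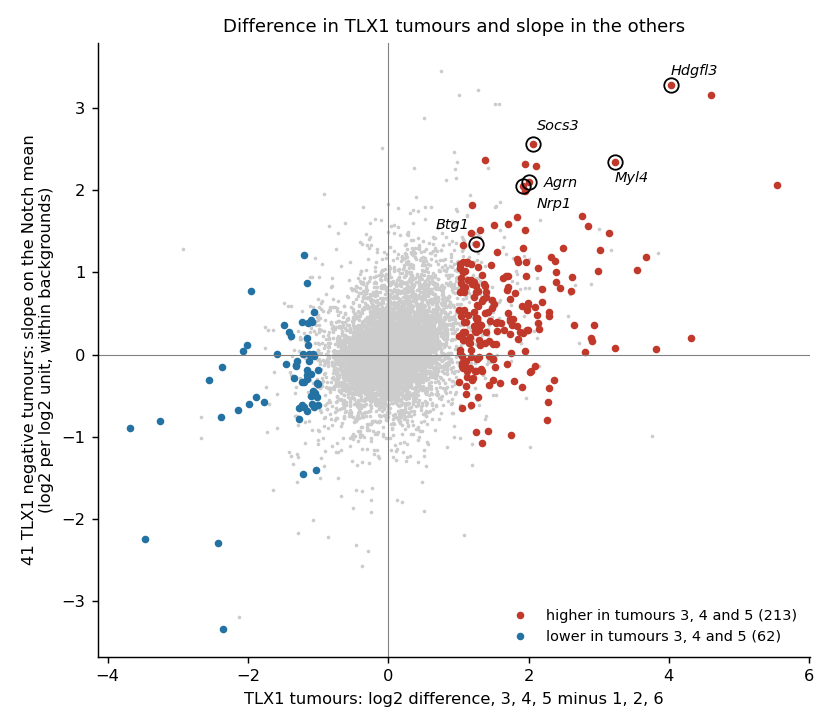
Each of 8784 genes by its log2 difference between the TLX1 classes (horizontal axis) and its slope on the Notch mean in the 41 TLX1 negative tumours (vertical axis, log2 per log2 unit). Red points are the 213 genes higher and blue points the 62 lower in tumours 3, 4 and 5; circles mark the 6 genes with a called slope, all in the upper right.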

How the data were processed

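RNA taken with Trizol was hybridised as biotinylated cRNA, per the labels' protocols. The deposited values are linear signal intensities, 1 per probe set and array, made by the authors with MAS5 per the submitters' processing notes. Its version and scaling target are unstated, but every array had a trimmed mean near 250.1. Of 22690 probe sets, 64 controls were kept apart, and 20380 with 1 symbol in the platform table were used. Kept were those above the array median in at least 2 arrays and, per gene, the one of highest mean, which left 8810 genes. Values were log2(signal + 15.9), the 25th percentile of deposited signals. Low values make a difference depend on that pseudocount. The p53 gene is not analysed here.

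The classes were described by differences of means ± SE and by overlap, with no test. Slopes in the 41 TLX1 negative tumours came from limma 3.58.1 in R 4.3.3 (lmFit, then eBayes with a trend), with background as a term (27 residual degrees of freedom) and Benjamini-Hochberg adjustment over 8810 genes, called at an adjusted p under 0.05; the fit was tested on simulated data. The members, the 33 gene lists and a muscle list were chosen with earlier results of these data known. Named genes were the 15 largest differences in each direction whose higher class exceeded the mean array median, up to 10 in each direction that were also called, up to 4 not overlapping per list, all Notch list genes and 34 T-cell genes. Promoters came from RefSeq, for 7144 of the genes. Alternatives were other pseudocounts, quantile normalization, filters and probe set choices, no background term, the title number as a block, and leaving out each tumour or background. The number of arrays limits the precision.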

Additional observations from a re-analysis of the deposited data

Results flagged for a closer look

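Among 156 genes and 34 lists looked at, in 12 cases 1 of the 6 TLX1 tumours lay far from the other 5 by Dixon's criterion. For independent, normally distributed values chance meets it in about 1 group in 20. Most of these genes were chosen by their levels in the same tumours, and the lists share genes. The number that chance would give here is therefore not known, and the cases are given as values only. The values are log2(signal + 15.9) unless a list is named.

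In the Notch-high tumours, *Rag2* was 7.28 in tumour 3, with the others at 5.03 to 5.83, and *Myh4*, a fast myosin, was 9.01 in tumour 3, with the others at 4.37 to 5.49. In tumour 5 *Mb*, which encodes myoglobin, was 10.4 against 4.79 to 6.89, and *Itgax*, which encodes the dendritic cell integrin CD11c, was 8.14 against 5.73 to 6.52. The dendritic cell list mean of tumour 5 was 1.40, with the others at 0.10 to 0.48.

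In the Notch-low tumours, *Prss16* was 9.56 in tumour 6 against 5.21 to 6.84, *Csf1r*, the receptor of macrophage colony-stimulating factor, was 8.35 in tumour 6 against 9.83 to 10.5, and *Tm6sf1* was 6.26 in tumour 6 against 8.05 to 9.02. *Cd8b1* was 5.08 in tumour 2 against 8.59 to 9.23, and the T cell receptor list mean of that tumour was −0.63, with the others at −0.06 to 0.10. *Cdkn2a*, a tumour suppressor locus, was 7.46 in tumour 1 against 5.31 to 6.03, and *Casq1*, a calcium-binding protein of muscle, was 5.5 in tumour 1 against 6.17 to 6.52.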

How the results depend on the processing

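The 275 genes separated by at least 2-fold (213 higher, 62 lower) became 125 (99 and 26) with the median signal as pseudocount, 623 (399 and 224) at 1.5-fold, 568 (404 and 164) for tumours 3 and 4 against 1 and 6, and 129 (105 and 24) at 2-fold within both control ratio levels; the last pair of settings was chosen after seeing the data. With a pseudocount of 1 the lower genes became 99. Of the 275, 272 were kept with a pseudocount of 1, 248 under quantile normalization and 124 with the median. A gene can pass the filter of 2 arrays through tumours of 1 class alone. With a filter of 6 arrays 226 genes were separated (175 higher, 51 lower), 225 of them among the 275. Leaving out 1 TLX1 tumour gave 348 to 517 genes (232 to 405 higher, 107 to 149 lower).

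The 13 called slopes became 6 under quantile normalization, 8 with the probe set of largest interquartile range, 1365 without a background term, and 0 with the replicate block (797 at an unadjusted limma p under 0.05); leaving out 1 tumour or background gave 0 to 29. The 6 separated and called genes became 71 without a background term and 0 with the replicate block (60 at an unadjusted p under 0.05), and 0 to 9 with 1 tumour or background left out. The labels do not say what the title numbers mean. Among same-numbered pairs across backgrounds, 20 of 192 had deviations correlated over 0.1 (median −0.01), and 1 of 35 tumours correlated best with its own number. Correlations of whole profiles cannot decide whether the number goes with the levels of single genes, so no conclusion is drawn from them. The causes were not tested. Differences were recomputed only for named genes at least 2-fold apart without overlap, and slopes only for the 6 genes separated and called. None turned its sign, but genes chosen in this way on the same arrays could hardly do so. The differences of single genes were not recomputed with 1 TLX1 tumour left out.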
